A study of Mus musculus with 69 samples.

Results

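The mannose receptor and 9 other C-type lectin genes (Mrc1, Mgl2, Clec10a, Clec7a, Clec4n, Clec4d, Clec4e, Clec4a2, Clec5a and Clec12a) were followed through bone marrow-derived macrophages (BMDMs) stimulated with IL-4. The 10 genes were taken by symbol from the 24537 genes of each expression table. All 10 passed the filter on low values in every table of the study except that of the F1 C57 x NOD cells, where 2 passed.

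Poly(A) RNA was sequenced from BMDMs that had been differentiated for 7 days in M-CSF and then left untreated (basal) or given 20 ng/ml IL-4. A first experiment held cells of 5 inbred mouse strains, the wild-derived SPRET/EiJ (SPRET) and PWK/PhJ (PWK) and the laboratory strains NOD/ShiLtJ (NOD), BALB/cJ (BALB) and C57BL/6J (C57), under basal conditions and after 24 h of IL-4, with 3 libraries in each group and 2 in PWK basal. A second followed C57 and SPRET cells at 0, 1, 6 and 24 h of IL-4, and another did the same in cells of Egr2 fl/fl and LyzM-Cre Egr2 fl/fl mice, with 2 libraries in each group. F1 offspring of C57 crossed with SPRET or with NOD gave allele-assigned values under basal conditions and after 24 h of IL-4, again with 2 libraries per group. The mice were female and 8 to 12 weeks old. LyzM-Cre is active in myeloid cells, both genotypes of the Egr2 experiment carried the floxed alleles, and loss of Egr2 and presence of the Cre cannot be told apart.

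C-type lectins are receptors that recognise sugars and other ligands through a shared extracellular fold. The mannose receptor (Mrc1, CD206) and the galactose-type lectins Mgl2 and Clec10a are endocytic receptors that are used as markers of macrophages activated by IL-4. Clec7a (dectin-1) and Clec4n (dectin-2) recognise fungal cell wall glucans and mannans, Clec4e (mincle) and Clec4d recognise mycobacterial glycolipids, Clec5a signals through the adaptor Dap12, and Clec4a2 and Clec12a carry inhibitory motifs in their cytoplasmic tails. Several of these genes lie in clusters. On the mm10 assembly, Clec4a2, Clec4n, Clec4d and Clec4e fall within 166.6 kb of chromosome 6, Clec12a and Clec7a within 122.5 kb further along the same chromosome, and Mgl2 and Clec10a within 40.5 kb of chromosome 11. Clec5a is also on chromosome 6 and Mrc1 is on chromosome 2.

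Promoter sequences, from 250 bases before to 50 bases after the transcription start, were found in RefSeq (GRCm38.p6) for 8 of the 10 genes. Those of 3 genes that rose with IL-4 (Mrc1, Mgl2, Clec7a) and of 2 that fell (Clec4d, Clec4e) are shown because these genes carried the results below. Capitals mark matches, on either strand, to any of 8 motifs searched: TTC and GAA with 4 bases between them (the spacing bound by STAT6, the factor that IL-4 activates), TTCNNNGAA (other STAT factors), GAGGAAGT (PU.1), GGAAGT (an ETS core, contained in the PU.1 motif), TTGCNNAA (C/EBP), TGANTCA (AP-1), GTGGGCG (EGR) and GGG and TTTCC with 2 bases between them (NF-kB). Mrc1 was read from chr2:14229164-14229463 on the plus strand, Mgl2 from chr11:70130107-70130406 on the plus strand, Clec7a from chr6:129472730-129473029 on the minus strand, Clec4d from chr6:123261857-123262156 on the plus strand and Clec4e from chr6:123289822-123290121 on the minus strand.
Mrc1: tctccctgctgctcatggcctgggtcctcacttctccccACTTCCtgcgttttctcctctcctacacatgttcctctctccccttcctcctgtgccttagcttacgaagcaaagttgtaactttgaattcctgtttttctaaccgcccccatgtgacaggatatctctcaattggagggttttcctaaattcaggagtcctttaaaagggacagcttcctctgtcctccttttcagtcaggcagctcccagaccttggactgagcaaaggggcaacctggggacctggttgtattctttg
Mgl2: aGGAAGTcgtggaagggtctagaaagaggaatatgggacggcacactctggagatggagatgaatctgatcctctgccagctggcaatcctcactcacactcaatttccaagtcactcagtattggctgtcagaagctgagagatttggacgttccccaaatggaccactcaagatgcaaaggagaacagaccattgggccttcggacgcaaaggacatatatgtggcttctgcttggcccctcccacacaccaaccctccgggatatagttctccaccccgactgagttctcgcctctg
Clec7a: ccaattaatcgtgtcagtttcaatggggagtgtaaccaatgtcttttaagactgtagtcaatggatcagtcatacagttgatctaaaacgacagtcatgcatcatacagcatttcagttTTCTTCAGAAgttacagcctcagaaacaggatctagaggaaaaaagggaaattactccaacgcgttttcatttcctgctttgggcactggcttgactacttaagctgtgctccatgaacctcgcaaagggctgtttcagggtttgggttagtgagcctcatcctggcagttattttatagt
Clec4d: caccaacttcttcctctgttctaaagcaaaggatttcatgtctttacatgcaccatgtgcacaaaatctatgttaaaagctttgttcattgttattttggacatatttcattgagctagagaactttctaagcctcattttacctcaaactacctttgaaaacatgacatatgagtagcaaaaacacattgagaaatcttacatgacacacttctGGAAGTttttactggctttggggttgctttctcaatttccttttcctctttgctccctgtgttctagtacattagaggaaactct
Clec4e: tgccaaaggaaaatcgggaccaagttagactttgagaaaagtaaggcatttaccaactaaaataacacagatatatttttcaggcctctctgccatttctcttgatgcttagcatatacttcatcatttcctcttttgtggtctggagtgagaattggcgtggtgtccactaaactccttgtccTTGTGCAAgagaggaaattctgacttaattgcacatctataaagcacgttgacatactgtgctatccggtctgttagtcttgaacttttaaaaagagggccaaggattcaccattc

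Of these 5 promoters, that of Clec7a held the STAT6 spacing, with the match starting 131 bases before the transcription start. This spacing occurred in 6.95% of the 32851 RefSeq promoters of the same length. The Clec4e promoter held the C/EBP motif, present in 10.8% of all promoters, while Mrc1, Mgl2 and Clec4d held the ETS core alone, present in 23.8%. Among the promoters not printed, Clec5a held the STAT6 spacing, Clec4a2 matched TTCNNNGAA (8.3% of promoters), the ETS core and the AP-1 motif (7.81%), and Clec12a matched the C/EBP and AP-1 motifs. No member promoter matched the PU.1 (3.2%), EGR (7.97%) or NF-kB (1.63%) letters in this window.

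Library depth ran from 7.02 to 22.5 M tags (M for mega) across the 29 libraries of the 5-strain experiment, from 5.70 to 24.0 M tags in the time course and from 4.69 to 32.9 M tags in the Egr2 experiment. In the 5-strain experiment 8 macrophage markers were detected in every library, with a summed level of at least 11020.4 TPM, whereas lymphocyte markers summed to at most 0.923 TPM. Expression was given in TPM, transcript abundance scaled to transcript length and to the library total, and differences were tested with limma on log2(TPM + 1) over all genes with Benjamini-Hochberg adjustment. A gene was called where its adjusted p was under 0.05 and it differed by over 2-fold. In these bulk cultures, fewer cells expressing a gene and less RNA per cell cannot be told apart. Mgl2 and Clec10a are close paralogs, as are Clec4a2 and neighbouring Clec4a genes, and how reads matching both copies were shared out was not given in the sources used here, so their levels are less certain.

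The response to 24 h of IL-4 was first compared in the 5 strains. Mrc1 and Clec7a rose in all 5 strains and Clec10a in 4, whereas Mgl2 rose in C57, BALB and PWK. Of these counts, 2 depended on the 1 TPM added before taking logs. With 5 TPM added instead, the Mrc1 rise in NOD was 0.84 on the log2 scale, within 2-fold. With 0.1 TPM added, Mgl2 was also called higher in SPRET (2.10). Clec4n was called lower in C57, BALB and SPRET, Clec4d in C57 and SPRET, Clec4e in C57, and Clec12a in BALB and SPRET. No strain called Clec4a2, the inhibitory receptor Dcir, or Clec5a. The numbers of the 10 genes called higher were 4 for C57, BALB and PWK, 3 for NOD and 2 for SPRET, where the share of all 11907 genes tested that was called higher was 2.28% (C57), 1.27% (BALB), 1.54% (PWK), 0.731% (NOD) and 2.32% (SPRET). Those called lower were 3 for C57 and SPRET (1.53% and 1.62% of all genes), 2 for BALB (0.815%), and none for NOD or PWK (0.462% and 0.546%). At an unadjusted limma p under 0.05, with no fold threshold, 3 members were lower in NOD and 5 in PWK.

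**Figure D1:**
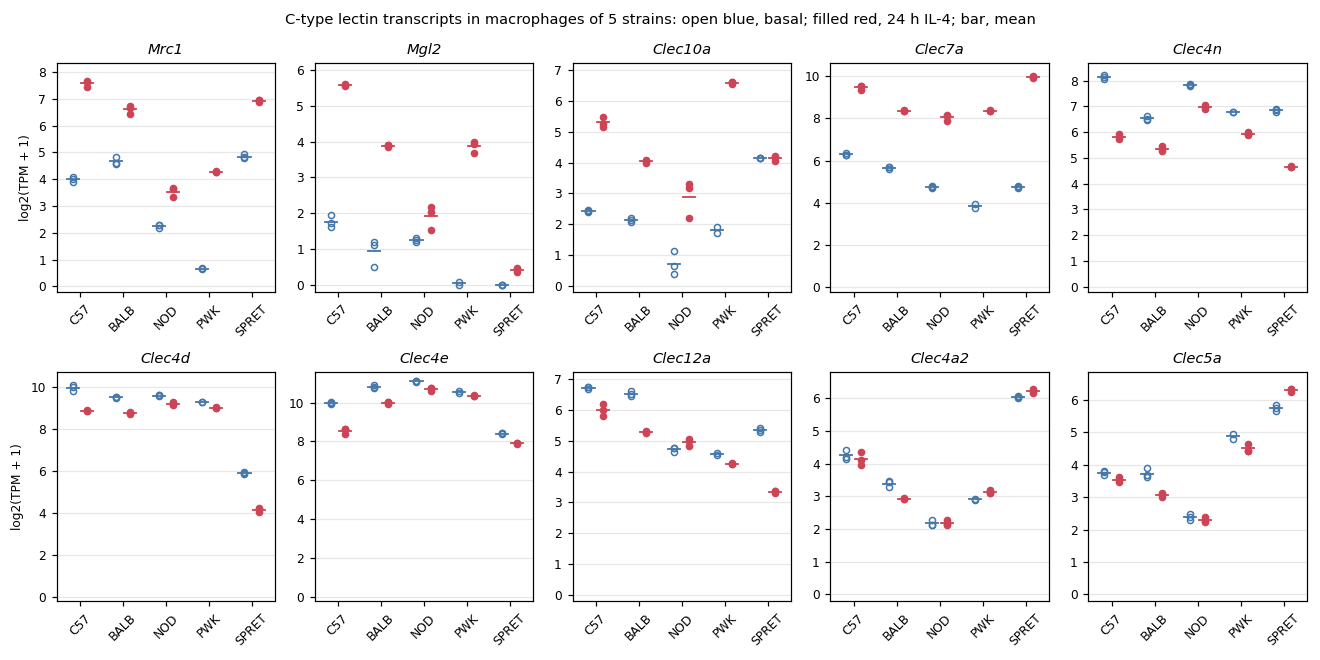
Levels of the 10 lectin genes as log2(TPM + 1) (vertical axis) in each library of the 5 strains (horizontal axis), open blue circles for basal and filled red circles for 24 h of IL-4, bars for means. Mrc1 and Clec7a sit higher after IL-4 in every strain, while both conditions of Clec10a coincide in SPRET at a mean of 16.8 TPM.

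Mrc1, the endocytic mannose receptor, stood at 15.0, 15.9 and 13.9 TPM in the basal C57 libraries and at 204, 199 and 172 TPM after IL-4. The log2 fold change was 3.59 ± 0.087 (SE, n = 3 per group, limma adjusted p = 8.34e-21). In BALB it went from 27.1, 22.9 and 23.4 to 106, 85.5 and 101 TPM, a log2 fold change of 1.95. Every IL-4 library lay above every basal library of its strain, but the absolute levels differed widely. NOD cells held 3.87, 3.87 and 3.51 TPM under basal conditions and 11.3, 9.02 and 11.7 TPM after IL-4, so the highest stimulated NOD library was below the lowest unstimulated C57 library. PWK cells started from only 0.557 and 0.589 TPM and reached 18.4, 18.5 and 18.1 TPM, and the log2 fold change of 3.62 in PWK was close to that of C57 on this scale. In SPRET, Mrc1 went from 27.3, 29.3 and 26.3 to 116, 123 and 124 TPM, starting higher than C57 and ending lower.

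Clec7a, the beta-glucan receptor dectin-1, had the largest increase of the 10 genes in SPRET and in NOD. In SPRET it stood at 25.3, 25.6 and 27.2 TPM under basal conditions and at 951, 976 and 1022 TPM after IL-4 (log2 fold change 5.19 ± 0.064, SE, adjusted p = 4.63e-27). In NOD, whose basal values were 25.7, 25.3 and 26.8 TPM and thus overlapped those of SPRET, IL-4 gave 276, 236 and 284 TPM. The same basal level was therefore followed by stimulated levels that did not overlap. C57 cells began highest, at 75.7, 76.1 and 79.8 TPM, and reached 745, 738 and 636 TPM. BALB and PWK cells reached 333, 323 and 329 TPM and 319, 331 and 323 TPM, ranges that overlapped, from basal means of 49.5 and 13.6 TPM that did not.

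The galactose-type lectin Clec10a had the widest range of responses among the strains on the log2(TPM + 1) scale. PWK cells held 2.27 and 2.76 TPM under basal conditions and 97.4, 93.1 and 97.8 TPM after IL-4, the highest level in any strain, with a log2 fold change of 4.79 ± 0.20 (SE, adjusted p = 1.73e-15). SPRET cells held 16.9, 16.9 and 16.7 TPM before and 15.7, 17.2 and 17.7 TPM after, and these ranges overlapped. The SPRET difference was 0.00 on the log2 scale with a 95% interval of -0.38 to 0.38. C57 cells went from 4.38, 4.26 and 4.53 to 34.9, 37.6 and 44.1 TPM, crossing the SPRET level from below. NOD cells went from 0.285, 1.19 and 0.556 to 8.12, 3.62 and 8.83 TPM, and BALB cells from a mean of 3.36 to 15.5 TPM.

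Its neighbour Mgl2 showed another strain pattern. In C57 it stood at 2.06, 2.28 and 2.88 TPM under basal conditions and at 46.6, 48.3 and 47.2 TPM after IL-4 (log2 fold change 3.84 ± 0.14, SE, adjusted p = 3.63e-17). In PWK, where one basal library was listed at 0 and the other at 0.0550 TPM, IL-4 gave 14.4, 11.9 and 14.9 TPM. BALB reached 13.5, 14.04 and 14.01 TPM from 1.28, 1.17 and 0.416 TPM, and its stimulated range overlapped that of PWK. NOD held 1.38, 1.48 and 1.27 TPM before and 1.89, 3.49 and 3.07 TPM after IL-4, which missed 2-fold (log2 fold change 0.66, adjusted p = 0.000988). In SPRET, Mgl2 was listed at 0 in all 3 basal libraries and at 0.267, 0.358 and 0.372 TPM after IL-4. Thus Mgl2 and Clec10a, adjacent on chromosome 11, ranked the strains differently: PWK was highest for stimulated Clec10a and C57 for stimulated Mgl2.

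Among the genes that fell, Clec4n (dectin-2) changed most in C57 and SPRET. C57 cells held 284, 270.2 and 294 TPM under basal conditions and 52.0, 59.2 and 54.7 TPM after IL-4 (log2 fold change -2.33 ± 0.055, SE, adjusted p = 6.07e-21), and SPRET cells held 114, 109 and 118 and 24.2, 25.0 and 23.8 TPM. The groups did not overlap in any strain, but in NOD, from 227, 219 and 232 to 126, 117 and 131 TPM, and in PWK, from a mean of 108 to 60.3 TPM, the changes of -0.85 and -0.84 on the log2 scale were below 2-fold. Rescaling the libraries by the median of their gene ratios moved the NOD value to -1.03, past 2-fold.

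Clec4d and Clec4e, which form receptors for mycobacterial cord factor, were the most abundant of the 10 transcripts in basal C57, BALB, NOD and PWK cells. Clec4d stood at 1009, 899.7 and 1093 TPM in basal C57 cells and at 454, 478 and 465 TPM after IL-4 (log2 fold change -1.10, adjusted p = 6.39e-15). In SPRET it was present at 56.9, 58.7 and 59.5 TPM and 15.5, 17.1 and 17.6 TPM, a larger proportional fall from a level below that of any other strain. Clec4e went from 1049, 993 and 985 to 403, 391 and 332 TPM in C57 (log2 fold change -1.43). In NOD, where Clec4e was highest, the values were 2169.6, 2153 and 2197 TPM before and 1715, 1522 and 1726 TPM after IL-4. These NOD groups did not overlap, yet the log2 difference was -0.40 (adjusted p = 1.63e-05), below 2-fold. PWK, BALB and SPRET gave log2 differences of -0.18, -0.84 and -0.49 for Clec4e.

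Clec12a, an inhibitory receptor for uric acid crystals, fell from 39.3, 41.5 and 38.1 to 9.26, 9.23 and 8.76 TPM in SPRET (log2 fold change -2.01 ± 0.072, SE, adjusted p = 1.14e-17). BALB libraries went from 90.8, 96.8 and 86.9 to 36.9, 38.5 and 38.1 TPM. C57 libraries, at 105, 101 and 107 and then 63.5, 71.4 and 54.4 TPM, did not overlap but stayed within 2-fold (-0.72 on the log2 scale), and NOD gave 0.24. Clec4a2 had its highest level in SPRET, at 64.1, 64.7 and 65.9 TPM before and 70.5, 73.9 and 77.4 TPM after IL-4, and its response stayed between -0.46 in BALB and 0.23 in PWK. Clec5a was also highest in SPRET, at 56.7, 52.5 and 49.3 TPM before and 74.4, 79.2 and 80.6 TPM after IL-4 (log2 difference 0.56, adjusted p = 2.32e-06), while the other 4 strains gave values from -0.65 in BALB to -0.096 in NOD.

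**Figure D2:**
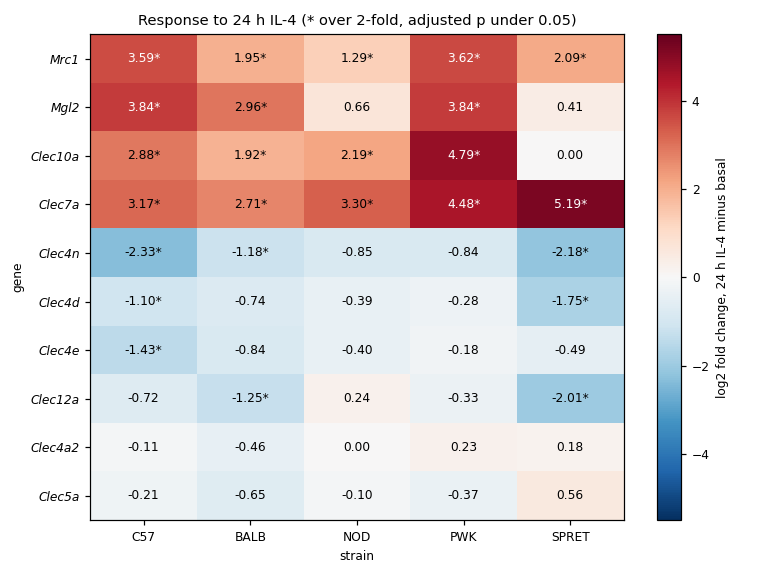
Log2 fold change after 24 h of IL-4 (colour and printed value) for each gene (rows) in each strain (columns), with an asterisk where the change was over 2-fold with an adjusted p under 0.05. Clec7a ranges from 2.71 in BALB to 5.19 in SPRET, and Clec10a from 0.00 in SPRET to 4.79 in PWK.

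The sum of 11 neutrophil markers, among them S100a8 (up to 394 TPM) and S100a9 (up to 274 TPM), was lower after IL-4 in the 3 strains where Clec4n was called lower and in NOD. It was 167 to 189.6 TPM in basal C57 libraries and 59.6 to 78.7 TPM after IL-4, 86.6 to 90.2 and 37.9 to 41.6 TPM in BALB, 45.4 to 58.1 and 22.3 to 24.4 TPM in NOD, and 344 to 404 and 249 to 274 TPM in SPRET. In PWK, where Clec4n was lower by less than 2-fold, the sum was 556 to 562 TPM before and 554 to 605 TPM after IL-4. The granulocyte marker Ly6g reached at most 0.276 TPM and Retnlg was listed at 0 in every library of this experiment. Other neutrophil markers were detected: Mmp8 reached 61.2 TPM, Camp 12.3 TPM, Ltf 4.64 TPM and Ngp 4.56 TPM. Cxcr2, Elane and Mpo reached 1.44, 1.31 and 0.834 TPM. The sum of 10 dendritic cell markers was 3.45 to 4.06 TPM before and 25.8 to 27.2 TPM after IL-4 in SPRET, and 15.9 to 21.3 TPM before and 27.2 to 30.6 TPM after IL-4 in C57. It was 42.4 to 46.8 TPM before and 31.4 to 34.7 TPM after IL-4 in BALB, 36.7 to 43.8 TPM before and 19.7 to 25.4 TPM after IL-4 in NOD, and 16.4 to 18.2 TPM before and 17.3 to 20.1 TPM after IL-4 in PWK. Of these markers 5 passed the filter, and they did not move together. Batf3, a transcription factor gene, was called higher with IL-4 in C57, BALB, PWK and SPRET (log2 differences 2.38, 1.16, 1.34 and 3.09). Cd24a was called lower in C57, BALB and NOD (-1.87, -1.09 and -1.52). Ccr7, Kit and Zbtb46 were called in no strain. The part of these markers in the lectin changes was not tested.

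The makeup of the set differed between conditions. In basal C57 cells the 10 transcripts summed to 2526 ± 119 TPM, of which Clec4d, Clec4e and Clec4n supplied 90.7% ± 0.246 and Mrc1, Mgl2, Clec10a and Clec7a 3.92% ± 0.181 (SD, n = 3). After IL-4 the sum was 1970.5 ± 122 TPM with shares of 45.5% ± 0.894 and 49.9% ± 0.824. SPRET cells went furthest, from 9.56% to 71.8% for the second group, with a sum of 737 ± 8.96 TPM before and 1563 ± 53.3 TPM after IL-4. NOD cells moved least, from 0.982% to 10.6%, and Clec4d, Clec4e and Clec4n still supplied 88.0% of the lectin transcripts after IL-4.

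Differences between strains were then tested against C57, so these 4 comparisons share the C57 libraries. Under basal conditions, 1 of the 10 genes was called for BALB, beside 4.81% of all genes, 9 for SPRET (18.1%), and 7 each for NOD (16.9%) and PWK (13.3%). The single BALB call was Clec4n, at -1.61. NOD cells were lower in Mrc1, Clec10a, Clec7a, Clec4a2, Clec5a and Clec12a, by log2 differences from -2.08 for Clec4a2 to -1.38 for Clec5a, and higher in Clec4e (1.11). PWK cells were lower in Mrc1, Mgl2, Clec7a, Clec4n, Clec4a2 and Clec12a, from -3.34 for Mrc1 to -1.35 for Clec4a2, and higher in Clec5a (1.12). SPRET cells were higher in Clec10a, Clec4a2 and Clec5a, by 1.72, 1.79 and 1.99. They were lower in Mgl2, which was listed at 0, and in Clec7a, Clec4n, Clec4d, Clec4e and Clec12a. Clec4d in SPRET differed from C57 by -4.07 ± 0.052 on the log2 scale (SE, adjusted p = 2e-27). For Clec7a, basal SPRET and NOD libraries overlapped each other. With 5 TPM added before taking logs, the basal NOD calls for Clec10a (-0.73) and Clec5a (-0.93) were lost. So were the PWK calls for Mgl2 (-0.56) and Clec5a (0.93) and the SPRET call for Mgl2 (-0.56). The median gene in NOD and PWK lay 0.30 and 0.16 below C57 on the log2 scale, and the Clec4n difference between NOD and C57, -0.32 on the log2 scale as deposited, became 0.038 after rescaling, so no direction was given for it. Of the 8 macrophage markers, 5 were called lower and 1 higher in basal PWK cells than in C57, with a median log2 difference of -1.25, and their sum was 11457 to 11699.7 TPM beside 23778 to 24524 TPM in C57. After IL-4 the PWK counts were again 5 and 1, with a median of -1.30. In basal NOD cells 3 were called lower and 1 higher, with a median of -0.58. Of the 6 neutrophil markers that passed the filter, 5 were called higher and 1 lower in basal PWK cells. The part of these marker differences in the lectin differences was not tested.

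After 24 h of IL-4, 9 genes were called for NOD, beside 13.2% of all genes, 7 each for PWK (12.2%) and SPRET (20.6%), and 5 for BALB (5.39%). In NOD, Mrc1 was -4.05 and Mgl2 -3.69 on the log2 scale relative to C57, while Clec4n and Clec4e were higher, by 1.16 and 2.14. In SPRET, Clec4d was -4.72, Mgl2 -5.18, Clec12a -2.66 and Clec5a 2.76 relative to C57. The neighbours Mgl2 and Clec10a differed from C57 in opposite directions in PWK, where Clec10a was 1.29 and Mgl2 -1.72 relative to C57. BALB cells were lower in Mgl2, Clec10a, Clec7a and Clec4a2 and higher in Clec4e (1.44). Among these strain differences after IL-4, Clec12a in NOD and Clec4a2 in PWK lay near 2-fold, at -1.03 and -1.003. Each fell within 2-fold when certain single libraries were left out. Clec12a moved to -0.94 without C57 IL-4 replicate 2 and -0.96 without NOD IL-4 replicate 2. Clec4a2 moved to -0.90, -0.99 and -0.99 without C57 IL-4 replicate 2, PWK IL-4 replicate 1 and PWK IL-4 replicate 2. Rescaling gave -0.91 for Clec12a and -0.99 for Clec4a2, and a pseudocount of 5 TPM gave -0.95 and -0.76. With 5 TPM, the BALB call for Clec4a2 (-0.90) and the NOD call for Clec5a (-0.82) were also lost.

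The difference between the responses of each strain and C57 was tested as an interaction. The log2 response of Mrc1 differed from that of C57 by -1.64 in BALB, -2.30 in NOD and -1.50 in SPRET, a smaller response in each (adjusted p = 4.8e-10, 5.3e-13 and 7.36e-10). The Clec7a response was larger by 1.30 in PWK and 2.01 in SPRET. Clec10a responded more in PWK (1.91) and less in SPRET (-2.88), and Mgl2 less in NOD (-3.18). The fall of Clec4n was smaller in BALB, NOD and PWK, by 1.16, 1.48 and 1.50, and that of Clec4e in NOD and PWK, by 1.03 and 1.25. Clec12a fell further in SPRET (-1.29), where Mgl2, listed at 0 under basal conditions, responded less as well. The median gene had a response difference of 0.17 in NOD, 0.13 in PWK and 0.16 in SPRET. In all, 5 genes were called for SPRET, beside 3.45% of all genes, 4 each for NOD (2.47%) and PWK (2.26%), and 2 for BALB (1.49%).

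Some of these response differences rested on low basal values. For Mrc1 and Mgl2 in PWK, the log2(TPM + 1) scale gave response differences from C57 of 0.028 and 0.0033. With a pseudocount of 0.1 TPM they were 1.11 and 2.53, and with 5 TPM they were -1.23 and -0.93, so no direction was given for either. The Clec4e response difference in NOD was 0.95 without C57 IL-4 replicate 3 and 0.81 after rescaling, both within 2-fold.

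The time course asked when these changes arose in C57 and SPRET cells. Clec7a was the only member called at 1 h, in both strains, and Clec4n, Clec4d, Clec4e and Clec12a fell later. In C57, the genes called higher numbered 1 at 1 h, 4 at 6 h and 4 at 24 h, beside 0.703%, 1.56% and 2.85% of all genes, and those called lower 0, 0 and 4, beside 0.174%, 0.571% and 2.91%. In SPRET, 1, 3 and 2 were higher, beside 1.41%, 2.81% and 2.62%, and 0, 4 and 4 lower, beside 0.472%, 1.75% and 2.99%. The 2 called higher in SPRET at 24 h were Clec7a and Mgl2, and the Mgl2 call was lost with 5 TPM added (0.89). Mrc1, called higher in SPRET at 24 h in the 5-strain experiment, stayed within 2-fold at 24 h here. At 1 h, where limma called no member lower, 1 member in SPRET, Clec4e, had a negative log2 difference with an adjusted p under 0.05 (-0.41, adjusted p = 0.00505), and none in C57 did.

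Clec7a libraries of C57 held 266 and 259 TPM at 0 h, 623 and 640.0 TPM at 1 h, 835 and 955 TPM at 6 h and 949 and 1036 TPM at 24 h. In SPRET the same times gave 62.0 and 61.6, 273 and 254, 507 and 452 and 726 and 650.2 TPM. The C57 6 h and 24 h libraries overlapped, whereas the SPRET groups stayed apart at each step. The SPRET response exceeded that of C57 by 1.17 at 6 h and 1.54 at 24 h on the log2 scale (adjusted p = 2.66e-05 and 9.39e-07). Without replicate 1 of each group the 6 h value was 0.97 (adjusted p = 0.0122), within 2-fold. Such response differences between the strains were called for no member at 1 h (4 at an unadjusted p under 0.05), 3 at 6 h and 4 at 24 h, beside 0.811%, 2.4% and 6.22% of all genes.

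Mrc1 was highest at 6 h in both strains. C57 libraries held 76.7 and 75.1 TPM at 0 h, 114 and 115 TPM at 1 h, 366 and 403 TPM at 6 h and 315 and 337 TPM at 24 h. SPRET libraries held 144 and 149, 287 and 269, 554 and 546 and 282 and 270.2 TPM at those times. In SPRET the 24 h libraries had returned to the 1 h range, and the change from 6 to 24 h was -0.99 ± 0.055 on the log2 scale (SE, adjusted p = 1.92e-07) against -0.23 in C57, both below 2-fold. Without SPRET 24 h replicate 1 the SPRET value was -1.02, past 2-fold, and without SPRET 6 h replicate 2 it was -1.004. The 24 h response of Mrc1 was smaller in SPRET, with a difference of -1.18 (adjusted p = 5.01e-07).

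**Figure D3:**
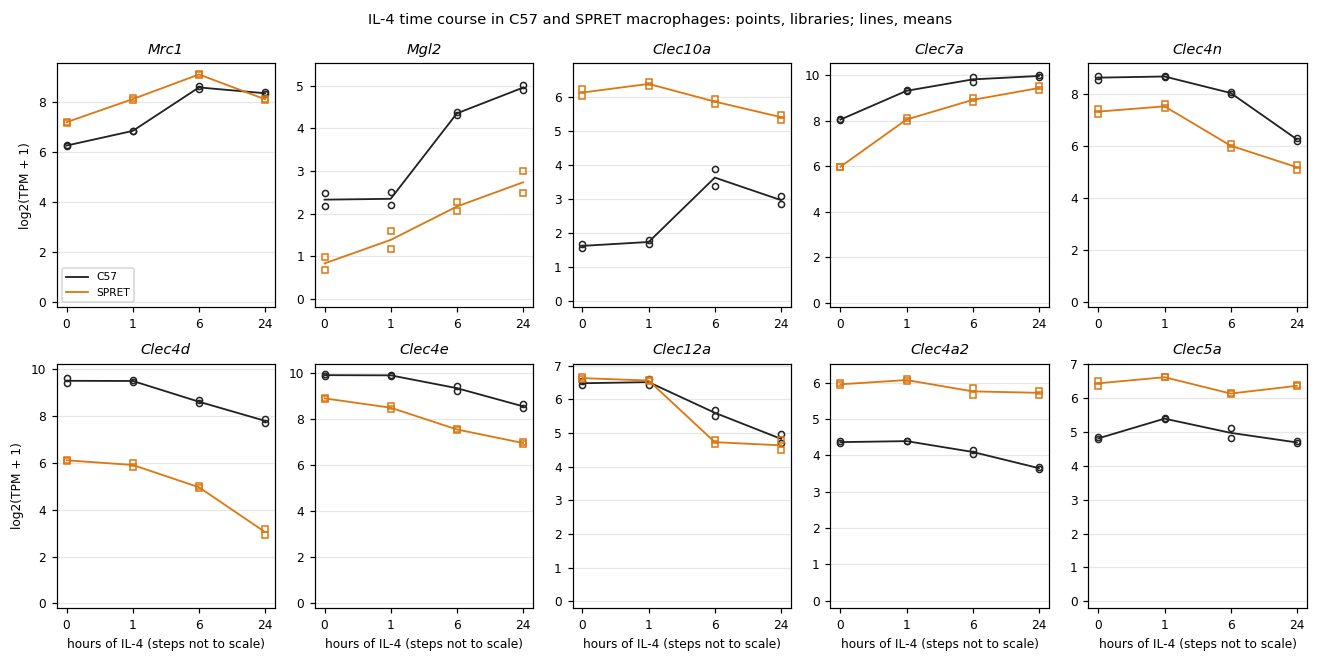
Log2(TPM + 1) (vertical axis) of the 10 genes at 0, 1, 6 and 24 h of IL-4 (horizontal axis, steps not to scale) in C57 (black circles) and SPRET (orange squares), points for libraries and lines for means. Clec7a is the only gene called at 1 h, and Clec4n, Clec4d, Clec4e and Clec12a are lower by 24 h in both strains.

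Clec10a went from 2.17 and 1.96 TPM to 9.34 and 13.7 TPM at 6 h and 6.14 and 7.48 TPM at 24 h in C57. In SPRET it began at 74.8 and 63.6 TPM and stood at 43.7 and 39.1 TPM after 24 h, a log2 difference of -0.72 (adjusted p = 0.002) that stayed within 2-fold. The responses of the 2 strains differed by -2.07 at 24 h. Mgl2 rose to 28.8 and 31.3 TPM at 24 h in C57 and to 6.94 and 4.58 TPM in SPRET, from 4.60 and 3.50 and 0.981 and 0.603 TPM. Its response difference between the strains did not pass the threshold here (-0.73, 95% interval -1.33 to -0.12, adjusted p = 0.0686).

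Clec4n, Clec4d, Clec4e and Clec12a passed the 2-fold threshold by 6 h in SPRET and by 24 h in C57. Clec4n stood at 413 and 371 TPM at 0 h, 254 and 265 TPM at 6 h and 72.2 and 78.0 TPM at 24 h in C57, and at 146 and 171, 67.0 and 59.7 and 37.8 and 32.9 TPM in SPRET. At 6 h the log2 differences from basal in C57 and SPRET were -0.59 and -1.31 for Clec4n, -0.89 and -1.15 for Clec4d, -0.56 and -1.35 for Clec4e, and -0.88 and -1.90 for Clec12a. The tested difference between strains at 6 h passed 2-fold only for Clec12a among these 4 (-1.03, adjusted p = 0.000994), and it fell within 2-fold without C57 basal replicate 2 (-0.97), C57 6 h replicate 2 (-0.94) or SPRET 6 h replicate 2 (-0.96). Clec4n and Clec4e had strain differences at 6 h of -0.72 and -0.79 with adjusted p of 0.00385 and 0.000598, and Clec4d had -0.26 (adjusted p = 0.3). By 24 h, the log2 change of Clec4d was -3.07 in SPRET against -1.71 in C57, a difference of -1.36 (adjusted p = 1.76e-05). The summed neutrophil markers, led here by Mmp8 (up to 282 TPM), were 68.9 to 76.3 TPM at 0 h and 72.5 to 92.7 TPM at 24 h in SPRET. In C57 they were 332 to 376 TPM at 0 h and 183 to 188 TPM at 24 h. The dendritic cell markers summed to 5.60 to 5.73 TPM at 0 h and 40.6 to 43.7 TPM at 24 h in SPRET. Their sum in C57 was 13.9 to 14.3 TPM at 0 h and 16.4 to 22.6 TPM at 24 h. Of these dendritic cell markers, Batf3 reached up to 38.9 TPM, Cd24a 10.85 TPM and Zbtb46 6.69 TPM. No other of them passed 2.04 TPM in this experiment. The part of either marker set was not tested.

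Clec5a and Clec4a2 were again higher in SPRET than in C57 at every time, and their responses to IL-4 were called at no time in either strain. Clec5a in C57 stood at 26.7 and 27.7 TPM at 0 h and 41.4 and 41.0 TPM at 1 h (log2 difference 0.58, adjusted p = 0.000665), and at 24.4 and 25.4 TPM at 24 h. Levels of some genes differed between experiments. Basal C57 cells averaged 15.0 TPM of Mrc1 in the 5-strain experiment and 75.9 TPM in the time course, and Clec10a after 24 h of IL-4 was lower in SPRET than C57 in the first (-1.15) but higher in the second (2.44). For Clec7a that difference was 0.48 in the first and -0.53 in the second, both below 2-fold. For Clec12a the same SPRET difference after IL-4 was -2.66 in the first experiment and -0.19 in the second (95% interval -0.43 to 0.048). The tables were normalized separately, so differences were tested within each and not between them.

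The Egr2 experiment addressed which members differ when this transcription factor is lost. Egr2 itself stood at 23.6 and 21.3 TPM in basal Egr2 fl/fl cells and 101 and 99.5 TPM after 24 h of IL-4, and at 0.859 and 0.854 and 4.72 and 7.05 TPM in LyzM-Cre Egr2 fl/fl cells, so the libraries matched their labels. Clec7a was lower without Egr2 at every time. Clec10a and Clec12a were higher at 24 h, Clec5a was lower at 24 h, and Mgl2 was lower at 1 h. The genes called numbered 1 under basal conditions, 2 at 1 h, 1 at 6 h and 4 at 24 h, beside 0.853%, 1.06%, 2.3% and 4.55% of all 12079 genes tested.

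Clec7a held 157 and 165 TPM in basal Egr2 fl/fl cells, 400.4 and 389 TPM at 1 h, 715 and 698 TPM at 6 h and 782 and 802 TPM at 24 h. Without Egr2 the libraries held 59.6 and 54.5, 191 and 201, 216 and 199 and 261 and 248 TPM. The genotypes did not overlap at any time, and the stimulated knockout at 24 h stayed below the control at 1 h. The log2 differences were -1.48, -1.01, -1.76 and -1.63 (adjusted p = 8.87e-09, 2.2e-07, 1.37e-09 and 9.99e-10). At 1 h the difference was within 2-fold without Egr2 fl/fl replicate 1 (-0.98) or LyzM-Cre Egr2 fl/fl replicate 1 (-0.97). Clec7a rose in both genotypes by 24 h, by 2.29 with and 2.14 without Egr2, and these responses differed by -0.15 (95% interval -0.32 to 0.013, adjusted p = 0.234).

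**Figure D4:**
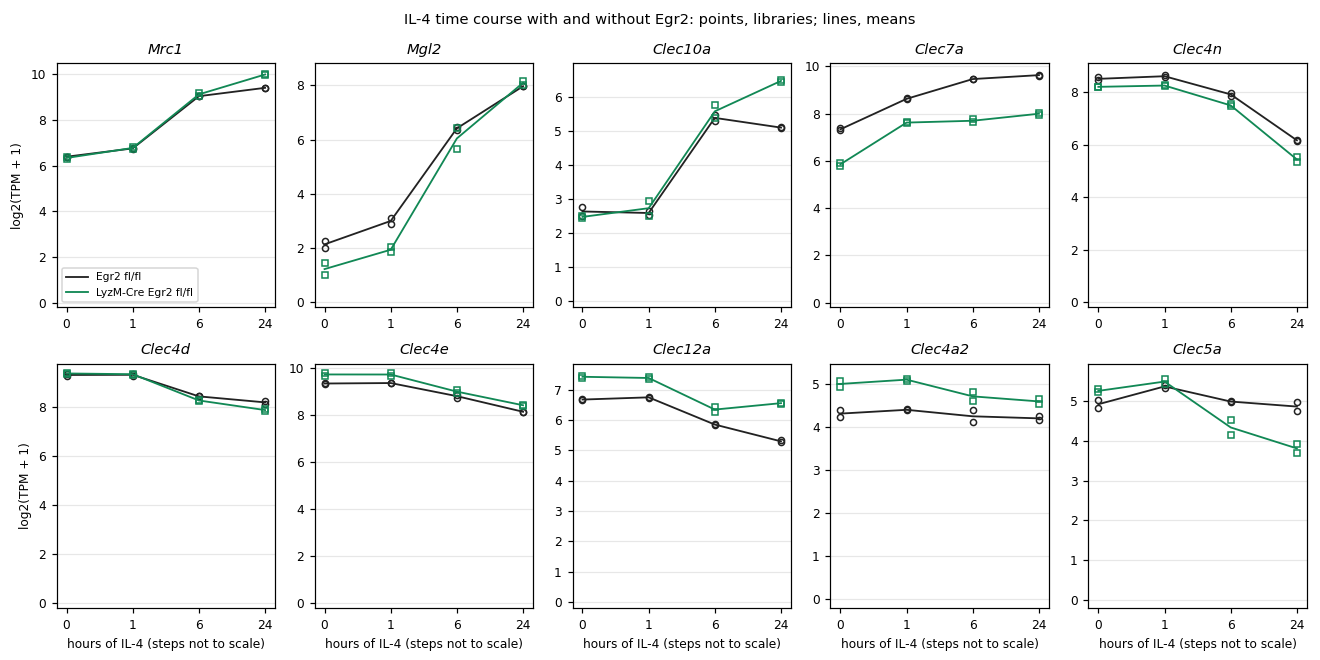
Log2(TPM + 1) (vertical axis) of the 10 genes at 0, 1, 6 and 24 h of IL-4 (horizontal axis, steps not to scale) in Egr2 fl/fl (black circles) and LyzM-Cre Egr2 fl/fl (green squares) cells, points for libraries and lines for means. The Clec7a lines run apart from the start, with log2 differences between -1.01 and -1.76, while those of Clec10a part at 24 h.

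Clec10a overlapped the control at 1 and 6 h and stood above it at 24 h. At 24 h it stood at 33.4 and 32.9 TPM in Egr2 fl/fl cells and 86.2 and 88.9 TPM without Egr2 (log2 difference 1.37 ± 0.15, SE, adjusted p = 2.12e-05), whereas at 6 h the values were 38.5 and 42.9 and 40.9 and 53.1 TPM and overlapped. Response differences between the genotypes were called for 3 members at 24 h (Clec10a, Mgl2 and Clec5a), beside 1.9% of all genes, and for none at 1 h (0.00828%) or 6 h (0.207%), where 1 and 5 members had an unadjusted p under 0.05. For Clec10a the 24 h response was larger without Egr2 by 1.53 (adjusted p = 0.000591). This call was lost when replicate 1 (1.735) or replicate 2 (1.33) of each group compared was left out, which left a single library per group. Mrc1 reached 998 and 1015 TPM without Egr2 and 668 and 675 TPM in the control at 24 h, a log2 difference of 0.58 (adjusted p = 2.03e-06) that did not reach 2-fold. Mgl2 was 2.59 and 3.05 TPM at 1 h without Egr2 and 6.45 and 7.52 TPM in the control (log2 difference -1.06, adjusted p = 0.00512), but at 24 h the genotypes reached 259 and 286 and 251 and 248 TPM. Under basal conditions Mgl2 held 1.69 and 1.00 TPM without Egr2 and 3.82 and 2.98 TPM in the control, a log2 difference of -0.91 (adjusted p = 0.0122) that missed 2-fold. It passed 2-fold with a pseudocount of 0.1 TPM (-1.30), without Egr2 fl/fl basal replicate 2 (-1.05) and without LyzM-Cre Egr2 fl/fl basal replicate 1 (-1.13). The Mgl2 call at 1 h was lost without Egr2 fl/fl replicate 2 (-0.97) and without LyzM-Cre Egr2 fl/fl replicate 1 (-0.98).

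Clec12a stood at 101 and 102 TPM in basal control cells and 174 and 168 TPM without Egr2, and at 37.5 and 39.2 and 94.1 and 92.3 TPM after 24 h. The 24 h log2 difference was 1.26 (adjusted p = 7.36e-09). Clec5a, the Dap12-linked receptor, held 27.3 and 31.3 TPM at 0 h and 25.9 and 30.3 TPM at 24 h with Egr2, against 38.2 and 36.2 and 11.9 and 14.2 TPM without it. Clec5a fell with IL-4 in the knockout (-1.45) and had a log2 difference of -0.059 in the control, and the difference between these responses was -1.39 ± 0.17 (SE, adjusted p = 0.000249). At 6 h Clec5a held 30.3 to 31.1 TPM with Egr2 and 16.8 to 21.9 TPM without it. The response difference at 6 h was not called. It passed 2-fold with a pseudocount of 0.1 TPM (-1.02), without Egr2 fl/fl basal replicate 2 (-1.08) and without LyzM-Cre Egr2 fl/fl 6 h replicate 1 (-1.17). The genotype difference in Clec5a at 24 h, -1.05, fell within 2-fold without Egr2 fl/fl replicate 2 (-0.94) or LyzM-Cre Egr2 fl/fl replicate 1 (-0.93). Clec4n, Clec4d, Clec4e and Clec4a2 had 24 h genotype differences between -0.73 and 0.39, none past 2-fold, where the median gene had 0.12.

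Within each genotype, 4 members were called higher at 24 h (Mrc1, Mgl2, Clec10a and Clec7a in both) and 4 lower, beside 2.31% and 2.04% of all genes in Egr2 fl/fl cells and 2.76% and 2.07% in LyzM-Cre Egr2 fl/fl cells. The 4 lower genes were Clec4n, Clec4d, Clec4e and Clec12a with Egr2, and Clec4n, Clec4d, Clec4e and Clec5a without it. The neutrophil marker sum at 24 h was 119 to 122 TPM with Egr2 and 52.5 to 55.0 TPM without it, and its part in the genotype differences was not tested.

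In F1 cells both parental alleles share one nucleus, so allele differences there were set beside the strain differences. In F1 C57 x SPRET cells under basal conditions, the C57 allele was called lower for Mrc1 and Clec10a and higher for Clec4n and Clec4d, 4 of 10 genes beside 7.63% of all genes. Mrc1 read 21.0 and 20.9 TPM from the C57 allele and 58.9 and 56.7 TPM from the SPRET allele (log2 ratio -1.42 ± 0.13, SE, n = 2, limma adjusted p = 0.0203). Clec4d read 124 and 113 TPM and 51.0 and 41.4 TPM. Each allele pair was separated in both libraries, and Clec10a gave a log2 ratio of -1.28 and Clec4n of 1.82. After IL-4 only Mgl2 was called, with 51.8 and 41.4 TPM from the C57 and 16.9 and 21.7 TPM from the SPRET allele (log2 ratio 1.23, adjusted p = 0.0455), beside 4.33% of all genes. The 4 basal calls were lost without either basal library, and the Mgl2 call without any 1 of the 4 libraries (0 members called in each case). With the replicate number added as a block the 4 basal genes were still called and Mgl2 was not (log2 ratio 1.23, adjusted p = 0.0755).

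On the scale with 1 TPM added, the allele differences in F1 cells were mostly smaller than those between parents. The added 1 TPM draws the ratios of low alleles toward 0. Clec4n after IL-4 read 1.902 and 2.992 TPM from the C57 and 0.615 and 1.608 TPM from the SPRET allele, with a log2 ratio of 0.73. At basal, the median absolute log2 difference of the 10 genes was 1.65 between parents in the 5-strain experiment, 1.54 in the time course and 0.76 between F1 alleles, and after IL-4 it was 1.62, 1.63 and 0.48. Clec4d, -4.07 and -3.40 for SPRET minus C57 parents in the 2 experiments, had a C57 minus SPRET allele ratio of 1.35. Under basal conditions, 8 genes differed more than 2-fold, in the same direction, between the parents in both experiments. Of these 8, 6 had an F1 allele ratio in that direction and 3 (Clec10a, Clec4n and Clec4d) reached 2-fold. Mgl2 and Clec4a2 had the opposite sign. The Mgl2 sign rests on low allele values, 0.452 and 0.399 TPM from C57 and 1.205 and 0.633 TPM from SPRET. Clec4a2 was higher in SPRET parents by 1.79 and 1.59, whereas the C57 allele supplied 61.3 and 61.2% of its F1 signal under basal conditions and 62.8 and 54.6% after IL-4 (adjusted p for the ratio = 0.0559 and 0.106). Parent and F1 tables were normalized separately, and the difference between a parental and an allelic ratio was not tested.

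**Figure D5:**
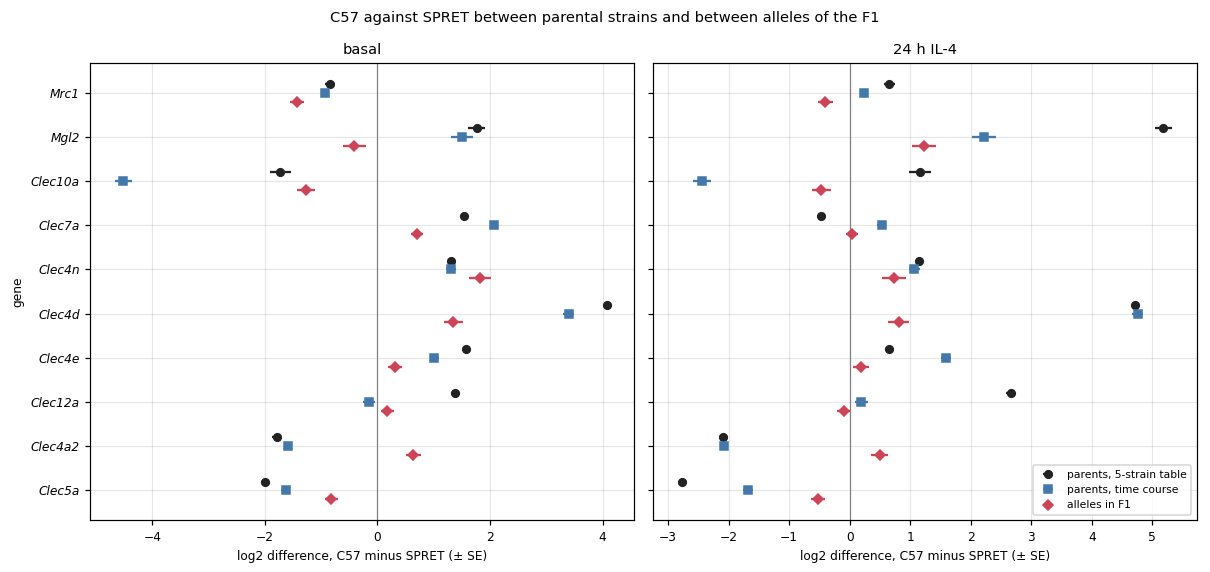
Log2 difference, C57 minus SPRET (horizontal axis, ± SE), for each gene (vertical axis) between parental strains in the 5-strain experiment (black) and the time course (blue) and between F1 alleles (red), under basal conditions and after 24 h of IL-4. With 1 TPM added to each value, the F1 values lie nearer 0 than both parental values for 7 of 10 genes under basal conditions and 9 of 10 after IL-4.

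The allele ratios of Mrc1 and Clec7a also moved with IL-4 as values. Mrc1 took 26.3 and 26.9% of its signal from the C57 allele under basal conditions and 40.8 and 45.2% after IL-4. Clec7a took 63.1 and 60.8% and 48.5 and 52.8%. No gene of the genome had a called change of allele ratio with IL-4 (limma, 0% of 11841 genes, of which 924 had an unadjusted p under 0.05), so these shifts are values without a call. In F1 C57 x NOD cells, 8 of the 10 genes were listed at 0 for both alleles in all 4 libraries. Clec7a read 31.0 and 27.3 TPM from the C57 and 102 and 88.7 TPM from the NOD allele after IL-4, and 12.5 and 21.2 and 28.0 and 33.3 TPM before, so the NOD allele was the larger in all 4 libraries, although NOD parents had less Clec7a than C57 parents in both conditions. Clec12a read 363 and 439 TPM from the C57 and 182 and 337 TPM from the NOD allele under basal conditions, and 75.6 and 38.5 TPM from the C57 and 45.9 and 43.7 TPM from the NOD allele after IL-4, when the 2 libraries differed in which allele was the larger. The limma adjusted p for the allele ratio of Clec7a was 0.497 under basal conditions and 0.27 after IL-4, and that of Clec12a 0.798 and 0.805.

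Other C-type lectins and the signalling genes behind these receptors were counted for comparison. Of 49 further lectin genes, 20 passed the filter in the 5-strain experiment, of which C57 called 1 higher and 2 lower, PWK 2 and 1, BALB 1 and 1, SPRET 0 and 2, and NOD none. Olr1, the oxidised LDL receptor, rose in C57, PWK and BALB by 2.12, 2.06 and 1.11 on the log2 scale. Klra2, an inhibitory Ly49 family receptor, fell in C57, BALB, PWK and SPRET by values from -1.68 in SPRET to -1.09 in BALB. Clec4a1 fell in SPRET (-1.59), Clec4f, a lectin of Kupffer cells, fell in C57 (-1.46), and Clec2h rose in PWK (1.17). All 20 signalling genes passed the filter. Prkcd, the kinase that couples Syk to Card9, rose in SPRET (1.38). The median log2 change of the 20 signalling genes lay between -0.31 in SPRET and 0.0069 in NOD, and that of the 20 further lectins between -0.22 in SPRET and 0.11 in NOD, beside medians from -0.11 in BALB to 0.12 in NOD for all genes.

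The genes whose pattern over the 10 group means of the 5-strain experiment was most like each of 3 members were ranked by the root mean square difference of centred log2 values. For Mrc1 these were Atp6v0a1, Pdlim1 and Ptgs1, at 0.95, 0.97 and 0.98, beside a median of 1.98 over all genes. For Clec7a they were Cish, Il4i1 and Gm21948, at 0.89, 0.91 and 0.93, beside a median of 2.03. For Mgl2 they were Olr1, Car2 and Ccl8, at 0.95, 1.00 and 1.01, beside a median of 1.85.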

How the data were processed

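RNA was measured by poly(A) sequencing in 69 libraries of the series, of which 29 from the 5 mouse strains, 16 each from the time course and the Egr2 experiment, and 8 from the F1 crosses were used. The authors mapped reads with STAR to strain-specific genomes, shifted positions to mm10 and deposited gene values in TPM made with HOMER over exons. For F1 cells they mapped reads to both parental genomes and shared out values by reads over sequence differences. The strand setting of the counting is not given in the sources used here. The deposited tables also hold fold changes and p-values from the authors' DESeq2 comparisons, which were not used, and human macrophage values were not analysed here.

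TPM were taken as log2(TPM + 1). Genes that reached 1 TPM in 2 or more libraries were fitted with limma 3.58.1 (R 4.3.3, empirical Bayes with trend), with one mean per group and Benjamini-Hochberg adjustment over all genes of a table. A gene was called at over 2-fold with an adjusted p under 0.05. F1 values were fitted as log2((C57 allele + 1)/(other allele + 1)) per library. Fold changes on these scales understate those of low genes. The study calls the samples of a group biological replicates, and p-values measure the spread between these samples. Simulated data with 200 genes changed 4-fold were recovered at 99.5% for the C57 response, 97.5% for C57 at 24 h in the time course, 94.5% for the Egr2 genotypes at 24 h, 58% for the change of allele ratio in F1 C57 x SPRET and 0% in F1 C57 x NOD. No 2 of 61 libraries held identical values. Tables were normalized separately, so tests were made within a table.

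The 10 genes, the marker and lectin lists, the 8 motifs and the tests were chosen with earlier results of these data known. Members were all named. Of the other lectins and signalling genes, those called in a strain were named, except for 1 result that is not reported here. For Mrc1, Clec7a and Mgl2 the 3 genes with the most similar pattern were named. Alternatives were pseudocounts of 0.1 and 5 TPM, no filter, rescaling by median gene ratios, a replicate block, fits of only the groups compared, and leaving out replicates or (chosen after seeing the data) single libraries. Same-numbered libraries of different groups deviated with a mean correlation of 0.013 among the strains, 0.030 over the time course and -0.0046 for Egr2, so the numbers were not taken to pair samples.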

Additional observations from a re-analysis of the deposited data

Results flagged for a closer look

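Tested response differences larger than 2-fold, with an adjusted limma p under 0.05, were found for 25 combinations of member and contrast. No group held 4 or more libraries, so no single library was tested for lying apart from its group.

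Against C57, the 24 h response in BALB differed by -1.64 for Mrc1 and 1.16 for Clec4n (log2). In NOD it differed by -3.18 for Mgl2, -2.30 for Mrc1, 1.48 for Clec4n and 1.03 for Clec4e. In PWK it differed by 1.91 for Clec10a, 1.50 for Clec4n, 1.30 for Clec7a and 1.25 for Clec4e. In SPRET it differed by -3.42 for Mgl2, -2.88 for Clec10a, 2.01 for Clec7a, -1.50 for Mrc1 and -1.29 for Clec12a. The Mgl2 value for SPRET is on the log2(TPM + 1) scale, with all 3 SPRET basal libraries listed at 0, and is no estimate of a fold.

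In the time course, the SPRET response at 6 h differed from that of C57 by -2.28 for Clec10a, 1.17 for Clec7a and -1.03 for Clec12a. At 24 h it differed by -2.07 for Clec10a, 1.54 for Clec7a, -1.36 for Clec4d and -1.18 for Mrc1. Clec10a, Clec7a and Mrc1 were thus called in the same direction for SPRET at 24 h in both experiments. Mgl2 and Clec12a were called at 24 h in the 5-strain experiment alone, and Clec4d in the time course alone. With a pseudocount of 5 TPM, those Clec12a and Clec4d calls were lost (-0.97 and -0.88).

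At 24 h the response without Egr2 differed from that of Egr2 fl/fl cells by 1.53 for Clec10a, -1.39 for Clec5a and 1.04 for Mgl2. The Clec10a call was lost when replicate 1 (1.735) or replicate 2 (1.33) of each group compared was left out. The Mgl2 value had an adjusted p of 0.0356 and missed the threshold without Egr2 fl/fl 24 h replicate 1 (1.05, adjusted p = 0.0905) or replicate 2 (1.03), Egr2 fl/fl basal replicate 1 (0.90), LyzM-Cre Egr2 fl/fl 24 h replicate 1 (1.11) or replicate 2 (0.97), or LyzM-Cre Egr2 fl/fl basal replicate 2 (0.83, adjusted p = 0.146). It also missed the threshold with a pseudocount of 5 TPM (0.53), with no filter (adjusted p = 0.0704) and after rescaling (0.92, adjusted p = 0.0707).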

How the results depend on the processing

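Directions reversed in 4 cases, for which the cause was not tested. The Clec10a response difference between NOD and C57, -0.69, was 0.13 with a pseudocount of 0.1 TPM. Those of Mrc1 and Mgl2 in PWK were -1.23 and -0.93 with 5 TPM. The basal Clec4n difference between NOD and C57 was 0.038 after rescaling. The number of members called in basal BALB against C57, 1, was 2 with a pseudocount of 0.1 TPM and 1 to 2 when replicates were left out, and the number with a called response difference between Egr2 genotypes at 24 h, 3, was 1 to 3. In F1 C57 x SPRET cells the 4 basal calls became 2 and the 1 call after IL-4 became 0 with no filter, and the latter also became 0 with an offset of 0.1. Leaving out single F1 libraries gave 0 to 4 and 0 calls, and leaving out a replicate number there left no residual degrees of freedom.

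With a replicate block the F1 C57 x SPRET call after IL-4 fell from 1 to 0, and no other call of a member changed. Fits of only the groups compared changed none of 429 values. Of the values for single members, 22 lost their call with a pseudocount of 5 TPM, 4 after rescaling, and 36, against 2604 on the same side of the threshold, when single libraries were left out. Low levels limit Mgl2 in SPRET, and 2 libraries a group limit the time course, Egr2 and F1 results.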

Other observations

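The strains ranked differently from gene to gene in the 5-strain experiment. Clec4a2 and Clec5a had SPRET highest and NOD lowest both before and after IL-4, and for Clec4a2 no pair of neighbours in the order overlapped. Before IL-4 the order was SPRET, C57, BALB, PWK and NOD, with means of 64.9, 18.1, 9.51, 6.49 and 3.51 TPM. Clec4d and Clec4e, neighbours on chromosome 6, shared their lowest strain, SPRET, in both conditions. Their highest strain before IL-4 differed, with Clec4d highest in C57 and Clec4e in NOD, and after IL-4 both were highest in NOD, where Clec4d averaged 585 ± 29.8 TPM and Clec4e 1654 ± 115 TPM (SD, n = 3). For Clec4n the order turned over with IL-4. C57 was highest under basal conditions at 283 TPM, and NOD after IL-4 at 125 TPM, when C57 (55.3 TPM) overlapped PWK (60.3 TPM). For Mrc1, SPRET and BALB overlapped at the top before IL-4, and after IL-4 C57 was highest with no overlap between neighbours.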
